A study of Saccharomyces cerevisiae with 6 samples.

Results

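The transcript levels described here are those of growing wild-type cells of the yeast Saccharomyces cerevisiae strain BY4741, a haploid strain for laboratory use, of mating type a, without working HIS3, LEU2, MET17 (also called MET15) and URA3 genes. The study's 6 arrays are 2 of an eos1 deletion and 2 of an izh2 deletion, both made in BY4741, and the 2 of the wild type on which the levels rest. All cultures grew in YPD, a rich glucose medium, at 30 degrees Celsius and 150 rpm to an optical density of 1.0, so each group shares the medium, the growth phase and the auxotrophic alleles of BY4741. The labels describe 2 independent experiments but not whether each was its own culture, so the spread between arrays may be partly technical. The genes were chosen by what their probe sets name: of 10928 probe sets on the Affymetrix Yeast Genome 2.0 array, 5498 name 1 S. cerevisiae gene, and they cover 5449 genes, all of which were ranked by the mean log2 signal of the 2 wild-type arrays.

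Fast growth of yeast on glucose is known as a state in which the cell spends most of its transcription on making ribosomes. Sugar is fermented to ethanol by glycolytic enzymes even in air. Glucose repression keeps many genes for other carbon sources, for respiration and for storage below the levels they reach without glucose. No culture without glucose was measured here. Genes of meiosis and of the opposite mating type are known to be little expressed in a haploid. Signals of different probe sets also depend on their probes and carry no correction for transcript length. The ranks below are therefore ranks of signal, and genes of close rank are not resolved.

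The median signal of the S. cerevisiae genes was 549 on array 1 and 500 on array 2. Background was read on the same arrays from 1746 probe sets whose named gene belongs to another organism. Their median signal was 3.04 on array 1 and 2.05 on array 2, and their 95th percentile, taken as background, was 11.5 on array 1 and 9.15 on array 2. By this measure 5324 genes, or 97.7%, were above background on both arrays, 73 genes, or 1.34%, were below it on both, and 52 genes crossed it, 26 above on each array alone. A total of 4918 genes exceeded on both arrays even the brightest probe set of another organism. Those brightest ones carried the names of conserved genes, hta1 with 78.4 and 37.6, act1 with 46.5 and 35.8 and sam1 with 31.3 and 37.8, all of them members of families that S. cerevisiae expresses strongly.

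**Figure D1:**
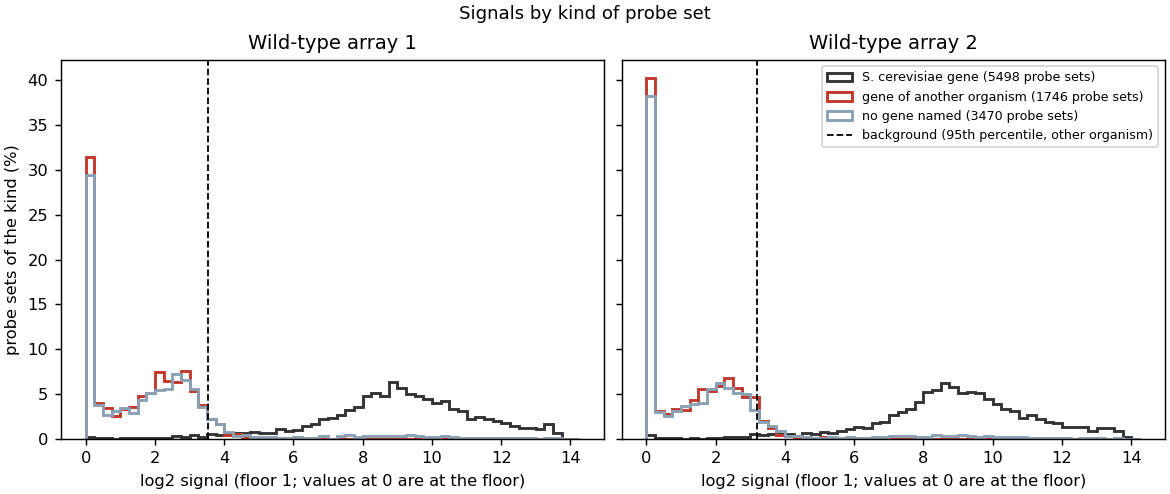
Share of probe sets of each kind (vertical axis, percent) by log2 signal (horizontal axis, floor 1) on wild-type array 1 (left) and wild-type array 2 (right), with the dashed line at background. Most probe sets naming an S. cerevisiae gene lie right of the line, around medians of 549 and 500, while those naming a gene of another organism lie mostly left of it.

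Genes that BY4741 lacks gave a separate view of how much signal arises without the transcript. URA3, for orotidine phosphate decarboxylase, gave 0.906 and 6.65, and MET17, for homocysteine synthase, gave 5.30 and 9.30, the second just above background. LEU2, for isopropylmalate dehydrogenase, gave 25.5 and 18.7, above background on both arrays although its coding sequence is missing from the strain. In all, 180 genes, 3.30% of those measured, had signals at or under those of LEU2 on both arrays, and 66 of these, LEU2 itself included, had counted as above background. HIS3, for imidazoleglycerol-phosphate dehydratase, whose allele in this strain is an internal deletion, still gave 2422 and 2124. Signals of the size of LEU2 were thus given here by a gene whose coding sequence the strain does not have. On the deletion arrays LEU2 gave 4.61 to 29.2, and it was under background on array 1 of each deletion strain.

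The 2 arrays gave nearly the same order of genes. The correlation of log2 signals across the 5449 genes, which are not independent replicates, was 0.975. Among genes above background on both arrays the median absolute difference was 0.27 on the log2 scale, and 95% of genes differed by less than 0.93. It was 0.40 among the lowest 10% of these genes and 0.15 among the highest 10%, so high signals agreed more closely than low ones. A difference over 2-fold was seen for 207 genes, 3.89% of them, and 140 of the 207 were higher on array 1. None of the 207 was in the highest 10%.

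Some gene lists were shifted between the arrays more than genes at large. Array 1 exceeded array 2 by a median of 0.10 on the log2 scale over the genes above background, and 60.4% of them (3214 of 5324) were higher on array 1 and 39.6% on array 2. The median difference was 0.46 for mitochondrial ribosomal proteins, with 65 of 69 genes (94.2%) higher on array 1, and 0.43 for kinetochore and spindle checkpoint genes, with 19 of 25 (76%) higher on array 1. Smaller lists had larger medians: 0.67 for aryl-alcohol dehydrogenases (4 of 5 higher on array 1) and 0.51 for cell fusion genes (10 of 13). The subtelomeric COS family also had 0.51 (7 of 9). Meiosis genes had 0.38 (42 of 49) and RNA polymerase subunits 0.31 (25 of 31). In the other direction the median was -0.24 for drug pumps, with 6 of 8 higher on array 2. The median was -0.22 for transcription factors, with 52 of 81 genes (64.2%) higher on array 2. It was -0.14 for glycolytic enzymes, with 14 of 16 (87.5%) higher on array 2, and -0.14 for cell wall proteins, with 16 of 19 (84.2%) higher on array 2. The offset also varied with level. In the highest 10% of genes above background its median was -0.006, and the median absolute difference was 0.15. Of the glycolytic genes 13 of 16, and of the cell wall genes 13 of 19, were in the highest 10% of all genes. Whether these lists differ from genes of like signal was not tested. All these shifts lie between arrays of 1 strain.

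The 10 genes that differed most between the arrays were BSC1, YBL112C, YEL076C-A, BFA1, YOR376W-A, PTH1, YLR154C-H, DHH1, TOP3 and YGR240C-A. BSC1 gave 123 to 269 on the 4 deletion arrays, against 19.1 and 149 on the wild-type arrays. DHH1, a helicase of mRNA decapping, gave 303 to 485 on the deletion arrays, against 127 and 538 in the wild type. TOP3, a DNA topoisomerase, gave 40.2 to 59.2 on the deletion arrays, against 12.7 and 53.3 in the wild type. In all 3 it was wild-type array 1 that stood low. Among 5342 genes whose mean level over the 6 arrays was above the mean background, wild-type array 1 was alone more than 2-fold under each of the other 5 arrays for 28 genes, against 2 to 22 genes for the others. Array 1 of the eos1 deletion was alone over all others for 53 genes, against 1 gene for wild-type array 1 and 0 to 2 for the rest. That array also had the highest median gene signal, 684 against 472 to 571 on the other arrays, and the highest background, 15.2. These counts used no further normalization, and the part of that brighter array in the 53 was not tested. CLN3, a G1 cyclin that was 1 of the 28 and chosen after its values were seen, gave 399 on array 1 and 1293 on array 2, so its rank differs between the arrays.

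**Figure D2:**
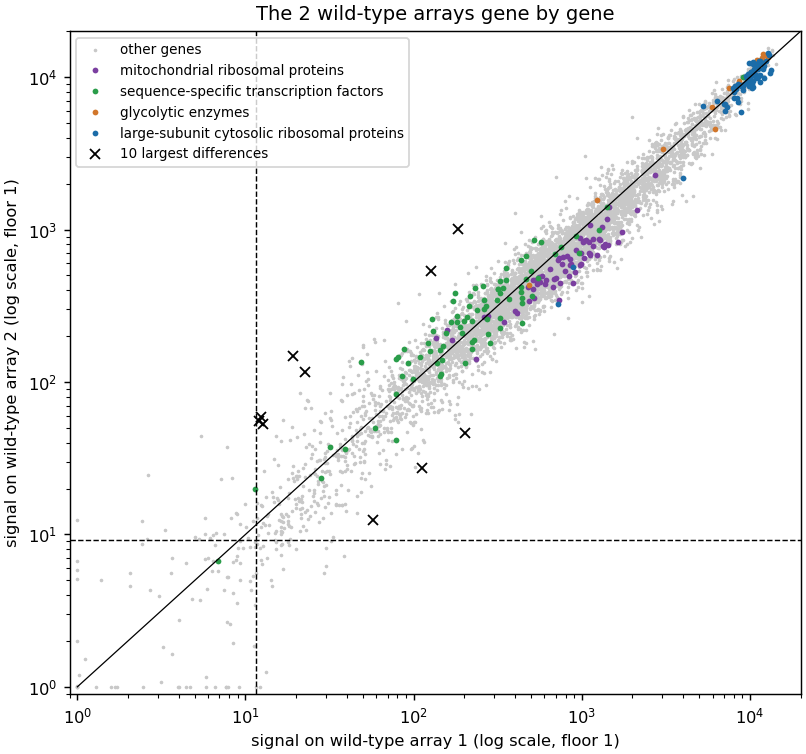
Signal of every gene on wild-type array 1 (horizontal, log scale, floor 1) and wild-type array 2 (vertical, log scale, floor 1), with dashed lines at background and a solid line at equal signal. Mitochondrial ribosomal protein genes lie mostly under the line of equal signal (65 of 69 higher on array 1), and crosses mark the 10 genes with the largest differences.

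Of the 30 genes of highest signal 15 encoded cytosolic ribosomal proteins, 10 of the small subunit and 5 of the large. Another 5 encoded glycolytic enzymes, 3 elongation factors and 1 an initiation factor. RPS21A, a small-subunit protein, led with 13599 and 15015. SSB1, a chaperone of the Hsp70 family that sits on ribosomes, followed with 13434 and 14873, and RPS31, made as a fusion of ubiquitin with a ribosomal protein, with 12737 and 15598. CCW12, an abundant mannoprotein of the cell wall, gave 13772 and 13915. TMA19, a ribosome-associated protein, gave 13089 and 14260 and was the only gene of the 30 outside the lists used here. The first 10 were completed by RPS17A, RPL3, RPL30, the elongation factor YEF3 and the triose phosphate isomerase TPI1.

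Ranks 11 to 30 continued with the same functions. The glycolytic enzymes ENO2 (enolase), GPM1 (phosphoglycerate mutase), CDC19 (pyruvate kinase) and PGK1 (phosphoglycerate kinase) stood beside RPS6B, RPS21B, RPS4B, RPS27B, RPS19B, RPS20, RPS8B, RPL11B, RPL23B and RPL32. CUP1-1, the copper metallothionein, had the highest signal of all on array 1, 14191, and was 46th on array 2 with 12145. ACT1, actin, ranked 19th with 12142 and 13558. EFT2 and TEF2 encode elongation factors, TIF2 the initiation helicase eIF4A, and HTA1 histone H2A, which gave 12881 and 12049. The 30 levels spanned only 0.24 on the log2 scale and the first 100 only 0.49, against 0.08 for the median SD between arrays in the 100. The order of genes of close rank within this group is thus unresolved. The next 100 genes spanned a similar 0.45. Of the 30, 8 were read by shared probe sets, a type that can match several near-identical transcripts, as were 23 of the 100 and 115 of all genes, so that some values may hold the signal of a gene and its copies.

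**Figure D3:**
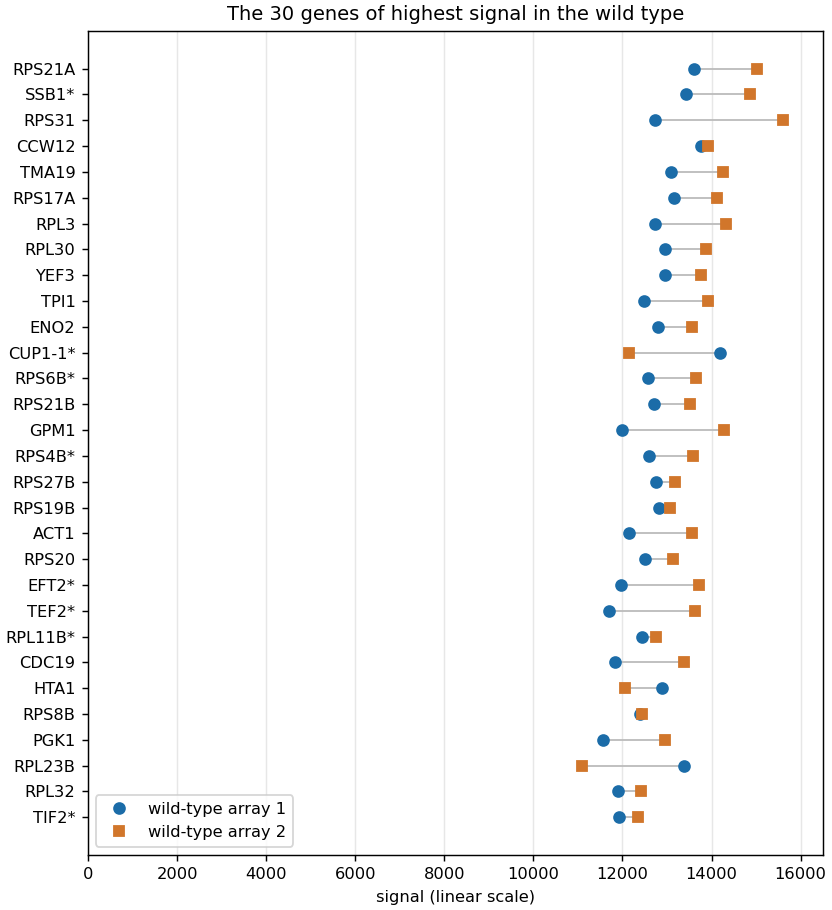
Signal (horizontal axis, linear scale) of the 30 genes with the highest mean log2 signal, top to bottom by rank, on wild-type array 1 (circles) and array 2 (squares), with a star for genes read by a shared probe set. All signals lie between 11102 and 15598, and the gaps between arrays are mostly wider than the gaps between neighbouring ranks.

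Ribosomal proteins dominated beyond that group as well. Of the 100 highest genes 66 encoded cytosolic ribosomal proteins, and 122 of the 127 measured were in the highest 10% of all genes. They held 16.7% and 17.6% of the summed signal of the arrays. The small-subunit list had a median signal of 10392 and 10607 and a median percentile of 98.6 (percentiles run upwards, with 50 at the median gene), and the large-subunit list had 10038 and 9906 and a median percentile of 98.1. The lowest members included copies of duplicated genes. RPL15B gave 883 and 565, and its copy RPL15A, chosen after its values were seen, gave 9870 and 9084. RPS9A gave 3198 and 2555, against 10908 and 10566 for RPS9B, also chosen after its values were seen. RPL41A, which encodes the smallest ribosomal protein, was the lowest of all 127 with 719 and 326, at percentile 47.2. RPL22B and RPS14B gave 4006 and 2164, and 3161 and 2940.

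The rest of the translation apparatus followed in steps. The 9 elongation factor genes had a median percentile of 97.9, but HEF3, a second copy of YEF3, stood at 9.19, and ANB1, the form of eIF5A made without oxygen, gave 814 and 547. The 18 aminoacyl-tRNA synthetases in the list used here, which charge tRNAs, had a median percentile of 93.1 and a narrow range. Among them THS1, GRS1 and DED81 were highest, and WRS1, the lowest, still gave 2770 and 2439. The 25 initiation factors had a median percentile of 89.3, with TIF2, CDC33 (the cap-binding protein) and SUI1 on top and TIF4632 at the bottom with 307 and 430.5. The 96 ribosome biogenesis factors, which build ribosomes and are not part of them, had a median percentile of 75.9, with NOP1, NHP2 and NOP10 highest and MAK16, NOP19 and RRP36 lowest. Subunits of the 3 nuclear RNA polymerases had a median percentile of 81.0, led by RPB8 with 4805 and 5125.

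**Figure D4:**
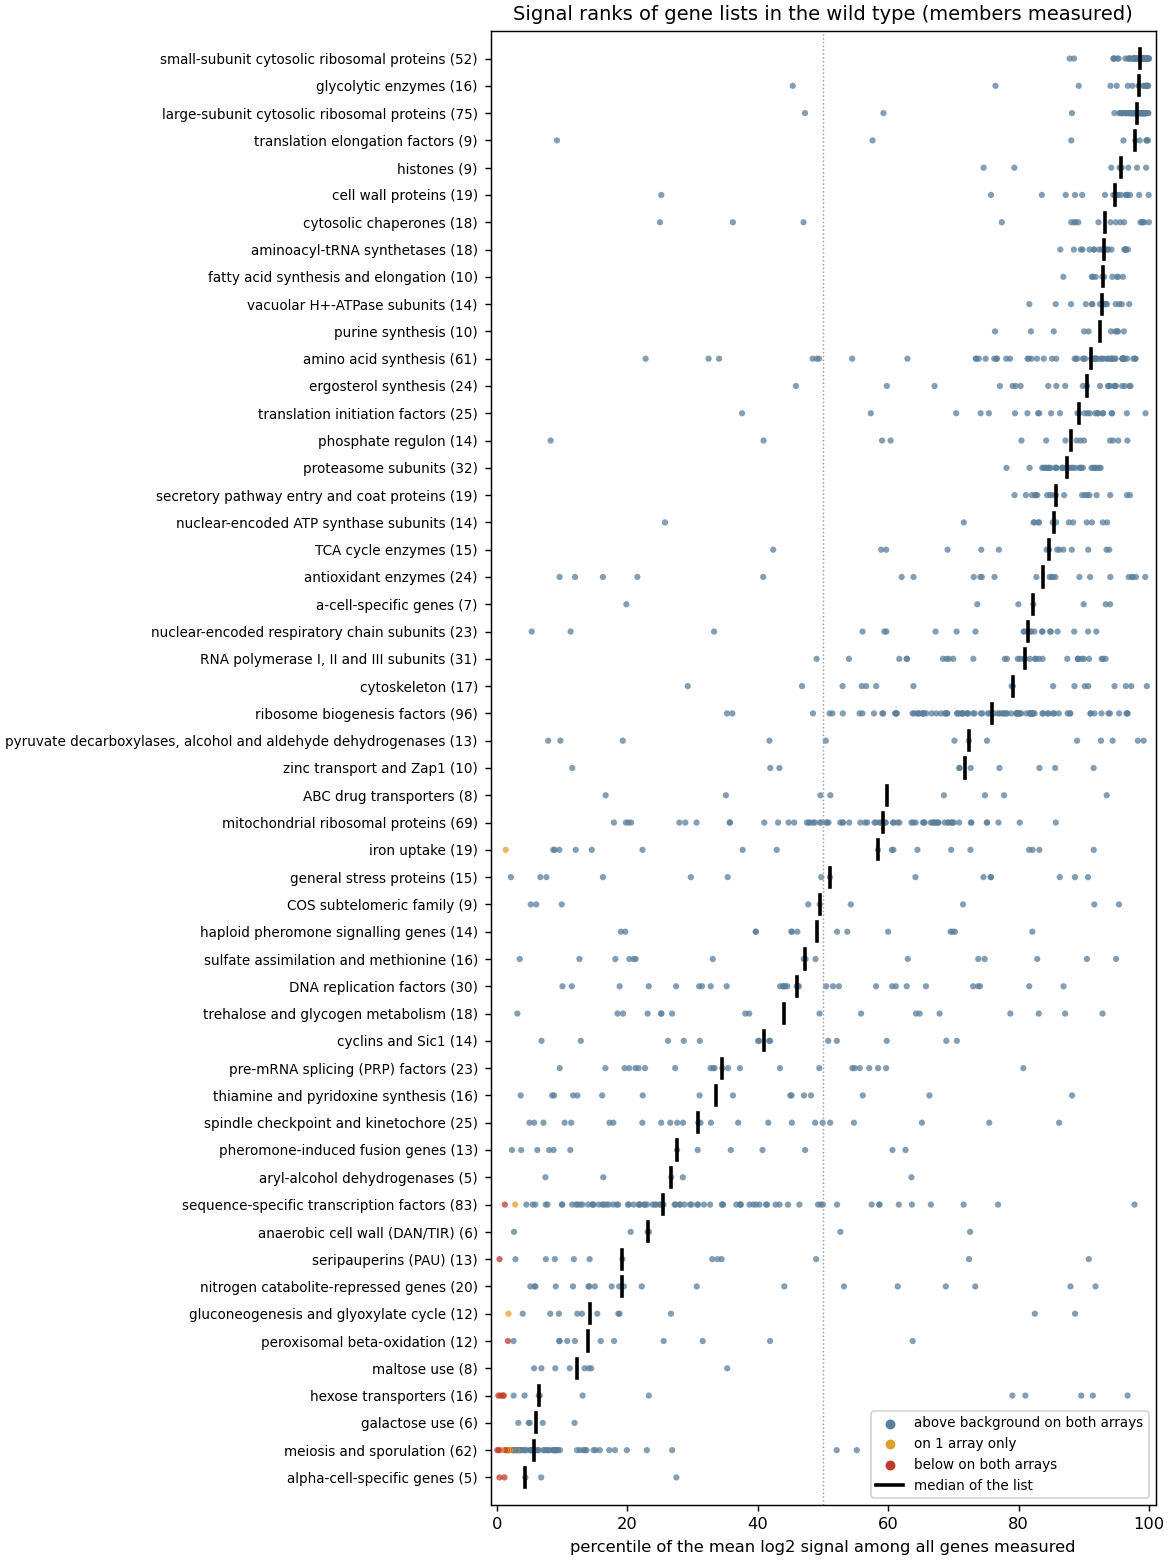
Percentile of mean log2 signal in the wild type (horizontal axis) for each measured member of gene lists with 5 or more members, with the number of members in brackets and black bars at the list medians. Lists run from small-subunit ribosomal proteins with a median of 98.6 at the top to alpha-cell-specific genes with 4.34 at the bottom, and red and orange points below or across background appear only in the lower lists and at the low end of iron uptake.

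Glycolytic enzymes had the highest median rank among the metabolic lists. The 16 glycolytic genes had a median percentile of 98.4, 13 were in the highest 10%, and the list held 1.82% and 2.09% of the summed signal. The exceptions were GLK1, glucokinase, with 3058 and 3372, the hexokinase HXK1 with 1236 and 1556, and PYK2, a second pyruvate kinase, with 482 and 432. PDC1, the main pyruvate decarboxylase, gave 10988 and 12400 and ADH1, which makes ethanol, 9777 and 10960. PDC6, a minor pyruvate decarboxylase, gave 66.7 and 49.9, ADH2, which oxidises ethanol, 199.0 and 152, and the aldehyde dehydrogenase ALD3 93.2 and 65.9.

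Further isoenzymes are set side by side here as signals of different probe sets, chosen after their values were seen. The plasma membrane proton pump PMA1 gave 8407 and 10066, and PMA2, its minor relative, 42.3 and 96.5. The hexokinase HXK2 gave 8558 and 9414. The enolases ENO2 and ENO1 both stood near the top of the scale, ENO1 with 10257 and 10675. Of the phosphoglucomutases PGM2 gave 376 and 377 and PGM1 1928 and 2134. The citrate synthases changed order between the arrays, with 2527 and 2634 for CIT1 and 3714 and 2534 for CIT2.

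Several further lists had median percentiles over 87. Cell wall proteins had a median percentile of 94.8, with CCW12, CWP2 and GAS1 highest and PIR3, at 214 and 264, lowest. Histones had 95.7, with the linker histone HHO1 and the variant HTZ1 lowest of the 9. Fatty acid synthesis and elongation had 93.0, led by FAS1, a subunit of fatty acid synthase, with 6963 and 6932. The vacuolar proton pump had 92.8, purine synthesis 92.4, amino acid synthesis 91.1 and ergosterol synthesis 90.4. Among the 61 amino acid genes HOM2, HIS1 and HOM6 were highest, HIS1 with 9658 and 9509, and ARG3, of arginine synthesis, was lowest with 190 and 230. The steps ERG2, ERG11 and ERG10 led the sterol pathway, ERG11 with 8244 and 8508. Proteasome subunits formed a tight group: the median percentile was 87.4 and all 32 lay between RPN11, with 1733 and 1328, and RPT6, with 4758 and 4200.

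Chaperones and antioxidant enzymes were mostly high, with some low members. Their median percentiles were 93.2 and 83.7, and 15 of 18 and 19 of 24 were over the median gene. Of the 18 cytosolic chaperones SSB1, SSB2 and SSA2 were highest, SSA2 with 11218 and 11614, and the heat-induced SSA4 and SSE2 with SSA3 were lowest, SSA3 with 226 and 245. TSA1, AHP1 and SOD1, which remove peroxides and superoxide, gave 8578 to 12105, whereas CTT1, the cytosolic catalase, gave 177 and 114 and CTA1, the peroxisomal one, 71.5 and 81.3. The 15 general stress proteins had a median percentile of 51.1 and a wide range, from DDR48 with 3812 and 3513 to SNO4 with 11.7 and 12.8. Trehalose and glycogen genes had 44.1, with UGP1 and TPS1 high and GAC1, a regulatory subunit of protein phosphatase, at 21.4 and 13.6, under the signal of LEU2.

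Mitochondrial functions ranked from high to middle. Enzymes of the tricarboxylic acid cycle had a median percentile of 84.7, with IDH2, ACO1 and LPD1 highest and KGD1 lowest with 344 and 519. ATP synthase subunits encoded in the nucleus had 85.5, and ATP1 gave 4790 and 5374. Respiratory chain subunits encoded in the nucleus had 81.4, with QCR8 and QCR7 highest, CYC7, the cytochrome c of low oxygen, at 139 and 63.9 and the dehydrogenase NDE2 at 42.5 and 26.1. The 69 mitochondrial ribosomal proteins had a median percentile of 59.2, with MRPS12 highest at 2711 and 2288 and MRP20 lowest at 135 and 193. Their median was 62.9 by array 1 alone and 55.2 by array 2 alone. Genes encoded in mitochondrial DNA were not analysed here.

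Lists of regulators and cell cycle genes had medians under the median gene, though each had members above it, from 10 of 83 transcription factors to 13 of 30 DNA replication factors. In RNA from a whole culture, fewer cells expressing a gene and less RNA in each cell cannot be told apart, which bears on genes used in 1 phase of the cycle. DNA replication factors had a median percentile of 46.1, with the sliding clamp POL30 at 2885 and 2465 and MCM10 at 86.7 and 76.8. The 14 genes of the cyclin list had 41.0, with CLB1 highest at 1097 and 1058 and CLB6, an S-phase cyclin, lowest at 41.9 and 53.5. Kinetochore and checkpoint genes had 30.9, the lowest being BUB1, SPC24 and CTF13, a kinetochore subunit with 20.3 and 43.7. Splicing factors of the PRP series had 34.5. The 83 sequence-specific transcription factors had a median percentile of 25.5, a median signal of 223 and 259, and together 0.44% and 0.51% of the summed signal. GCN4, the activator of amino acid synthesis, which is known for control at translation, was the exception with 9043 and 9951, at percentile 97.8. The next was ASH1, at 1417 and 1413. CAT8 and SIP4, activators of genes for non-fermentable carbon, were at the bottom with DAL80, a repressor of nitrogen genes that was below background with 6.87 and 6.65.

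Genes for carbon sources other than glucose were low. The 6 galactose genes had a median percentile of 6.0. GAL1, GAL7 and GAL10, the enzymes of galactose breakdown, gave 98.3 and 100.7, 56.8 and 43.8, and 46.3 and 18.0, and the transporter GAL2 gave 22.5 and 14.1, under LEU2. GAL3, the galactose sensor, gave 29.4 and 31.04, and GAL80, the repressor of the pathway, stood apart with 797 and 948. The 8 maltose genes had a median percentile of 12.3, from MAL31 with 368 and 309 through MAL13, MAL33, MAL11, IMA3, IMA5 and MAL32 to IMA1 with 44.0 and 28.8. Genes of gluconeogenesis and the glyoxylate cycle had 14.2: FBP1, fructose bisphosphatase, gave 62.4 and 59.8, MLS1, malate synthase, 28.0 and 17.4, and the succinate carrier SFC1 16.6 and 5.89, above background on array 1 only. Within that list CIT2 and MDH2, malate dehydrogenase, were high, MDH2 with 1792 and 2094. Peroxisomal beta-oxidation had 13.9, and POT1, its thiolase, was below background with 9.32 and 9.08.

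Hexose transporters ran from very high to very low signal, with 2 of 16 in the highest 10% of genes, 9 in the lowest 10% and 5 between. HXT3, HXT2 and HXT1 gave 7862 and 8085, 3863 and 3954, and 3352 and 3287. HXT10, HXT13, HXT14 and HXT15 were below background on both arrays, 4 of the 16 genes of the list (25%) against 1.34% of all genes, and HXT15 gave 0.967 and 2.00. HXT13 and HXT15 are read by shared probe sets, so that signal from close relatives would add to theirs. The median percentile of the list was 6.47.

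Meiosis and sporulation genes were low. Their median percentile was 5.66, their median signal 41.5 and 34.9, and 47 of 62 lay in the lowest 10% of genes. On both arrays 5 of the 62 (8.06%) were below background, against 1.34% of all genes, and 8 more were above it on 1 array only. MEI5 and SAE3, which act with the meiotic recombinase, gave 4.66 and 0.156, and 0.304 and 0.145, and MND1 gave 12.2 and 0.832. SPR6, SPO73 and ADY4 were the highest, SPR6 with 756 and 509. The whole list held 0.0718% and 0.0559% of the summed signal.

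Mating type markers matched an a cell, as the strain is labelled. Of the 7 a-cell genes the pheromone genes MFA2 and MFA1 gave 5797 and 4901, and 4318 and 2748, the alpha-factor receptor STE2 gave 4397 and 5608, and BAR1, AGA2 and STE6 gave 1172 to 1986. ASG7, which is known to be induced by pheromone, gave 212 and 150. Among the alpha-cell genes MF(ALPHA)1 gave 5.86 and 0.908 and HMLALPHA1 7.86 and 5.27, both below background, MF(ALPHA)2 gave 34.4 and 18.3 and the a-factor receptor STE3 47.2 and 45.3. SAG1, the alpha agglutinin, was the exception with 268 and 254. HMLALPHA2 was not analysed here. Genes of pheromone signalling found in all haploids had a median percentile of 49.1, led by the G protein subunit STE4 with 1874 and 1920. Genes of cell fusion had 27.6, with PRM6, at 15.2 and 10.5, the lowest, and 10 of 13 (76.9%) were higher on array 1, against 60.4% of all genes above background.

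Nutrient regulons were not uniform. The phosphate list had a median percentile of 88.0. Its transporter PHO84 gave 7281 and 8642 and the acid phosphatase PHO11, read by a shared probe set, 5656 and 5592. GIT1, a glycerophosphoinositol transporter, gave 65.8 and 57.1. The 10 zinc genes had 71.8, with the vacuolar carrier ZRC1 at 3874 and 4027 and the activator ZAP1 lowest at 85.8 and 109. Iron uptake genes had 58.4, from FRE1 with 4150 and 3775 to FRE5 with 5.71 and 10.1, above background on array 2 only. Genes repressed by good nitrogen sources had 19.1, although ASP3-1, an asparaginase, gave 4078 and 4079 and CAR1, arginase, 2873 and 2931. The sulfate and methionine list had 47.2, with SAM1 and SAM2, which make S-adenosylmethionine, at 5729 and 6456, and 3256 and 4011, and the sulfate permease SUL1 at 20.5 and 17.2.

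Cell surface families of low or mixed signal came next. The 4 flocculins FLO9, FLO10, FLO1 and FLO11 gave 355 and 288, 85.4 and 87.4, 65.5 and 65.6, and 53.9 and 72.5. FLO9, the highest, is read by a shared probe set. The seripauperins had a median percentile of 19.2, and 10 of the 13 are read by shared probe sets. They ran from PAU23 with 3629 and 3779 to PAU21, below background with 3.25 and 1.82. PAU23 has another probe set whose mean level corresponds to a signal of 278, so its place depends on the probe set kept. Of the anaerobic cell wall genes TIR1 gave 1185 and 1138, TIR2, TIR3, TIR4 and DAN4 178 to 598.5, and DAN1 16.2 and 12.2. Of the drug pumps PDR5 was highest with 4875 and 5193 and PDR11 lowest with 123 and 173.

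Of the 73 genes below background 41, or 56.2%, had no standard name. Of the 499 genes known only by a systematic name 41 (8.22%) were below background, against 32 of 4950 with a standard name (0.646%), and of the 142 among the 499 whose name carries a letter suffix, 25 (17.6%) were. The lists used here held 15 of the 73 (20.5%), close to their share of all genes, 22.3%. The genes on the upper side of the boundary by mean level were YOR387C, YGL188C-A, YCL001W-A, YLR412C-A and YBR200W-A, and YGL188C-A, at 11.9 and 9.86, was above it on both arrays. On the lower side were YFL067W, OSW1, SMA1, YHR022C-A and SFC1. OSW1, needed for the spore wall, gave 11.4 and 8.95. Being below background is not the same as having no transcript: BRN1, a condensin subunit that the cell needs to divide, was below on both arrays with 11.5 and 8.29, and was chosen after its values were seen. At the other end, YDR524C-B, a small gene with no standard name, ranked 45th of all genes with 10892 and 12581, and YCR024C-B, YDR341C, YHR020W and YDR316W-B followed at ranks 244 to 343.

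Rank also varied with place along the chromosome. Among the outermost 5 genes at each chromosome end 98 of 160 were measured, their median percentile was 9.42, and 52.0% of them lay in the lowest 10% of all genes. The median was 22.3 for the 6th to 10th genes and 46.7 for the 11th to 15th. Further in, the medians of all groups lay between 49.2 and 53.0. Of the 98 outermost genes 40 were read by shared probe sets, against 13 of 137 in the next group, which can read several members of a family. Their part in the pattern was not tested. Between chromosomes the median percentile ran from 42.6 for chromosome I to 55.0 for chromosome XI.

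**Figure D5:**
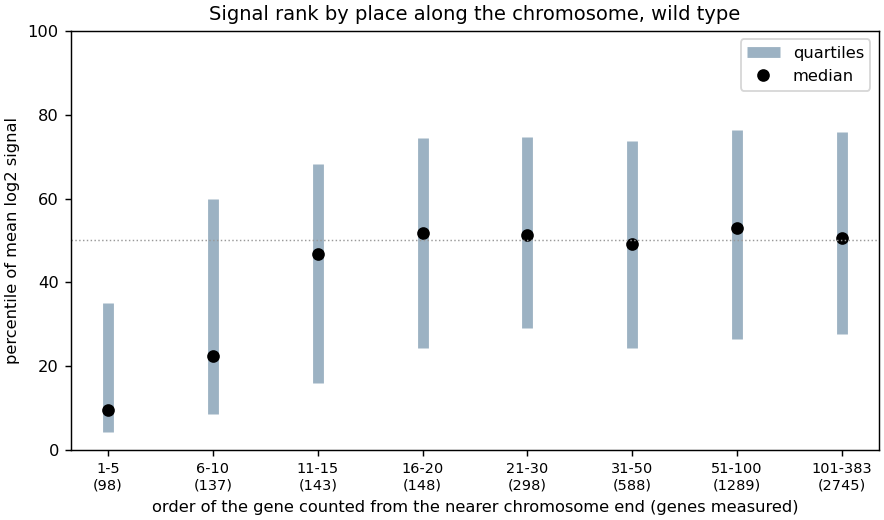
Percentile of mean log2 signal in the wild type (vertical axis) by the order of a gene from the nearer chromosome end (horizontal axis, number of genes measured in brackets), with points at medians and bars from the lower to the upper quartile. The median is 9.42 for the outermost 5 genes and 22.3 for the next 5, and lies between 46.7 and 53.0 further in.

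The deletion strains gave much the same highest genes. Of the 100 highest wild-type genes 89 were among the eos1 deletion's 100 highest and 96 among the izh2 deletion's, whose own highest 100 held 66 and 67 cytosolic ribosomal protein genes. EOS1, whose product sits in the endoplasmic reticulum and is linked to N-glycosylation, gave 0.421 and 2.70 on the eos1 deletion arrays, against 694 and 692 in the wild type. IZH2, which encodes a membrane protein linked to zinc, gave 3.46 and 1.12 on the izh2 deletion arrays, against 3543 and 2390 in the wild type. Of the 73 genes below background in the wild type, 8 were above it on both arrays of the eos1 deletion and 2 on both arrays of the izh2 deletion. Of the 5324 genes above it on both wild-type arrays, the eos1 deletion had 6 below on both and the izh2 deletion 10, EOS1 and IZH2 being 1 of each. For scale, 52 genes crossed background between the 2 wild-type arrays. No test was made, since the genes were ranked on the wild-type values that enter such a contrast.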

How the data were processed

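Total RNA came from a hot phenol extraction and was hybridised, with a biotin label, to the Affymetrix Yeast Genome 2.0 array, per the labels' protocols. The values used are the signal intensity the authors deposited for each probe set on each array, in linear units. The submitters' processing notes name GCOS (no version given) and the design text names GeneSpring 7.3.1 for statistics. The scaling between arrays and the genome build are not stated in these sources.

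Names came from the platform annotation and from RefSeq's gene table for assembly R64, which also gave gene order. For each of the 47 genes with several probe sets the one with the highest mean over the wild-type arrays was kept. Signals were floored at 1 and taken to log2, with no further normalization. Levels, percentiles and shares were computed in Python 3.11.15 with numpy 2.4.6 and pandas 2.3.3, and the ranking was tested on simulated data. With 1 group of 2 arrays no test was made, and 2 arrays limit the precision. Calls of background used unfloored signals. Alternatives changed the background, the floor, the probe set, the average, the normalization and the arrays.

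The genes named are the 30 highest, up to 3 highest and 3 lowest of each list described (all members of lists of 8 or fewer), 5 genes on each side of background, the 10 largest differences between arrays, the auxotrophic markers, EOS1, IZH2, ACT1 and the 5 highest systematic names. Further genes are marked as chosen after their values were seen. Genes and lists were chosen with earlier results of these data known. Of 59 gene lists 57 had members on the array. Several symbols in the lists were corrected to RefSeq names after the files were seen.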

Additional observations from a re-analysis of the deposited data

Results flagged for a closer look

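A signal was present in probe sets that name no gene. Of 3470 such probe sets 272 (7.84%) were above background on both wild-type arrays, against 29 of the 1746 that name a gene of another organism (1.66%). Of the 272, 181 exceeded on both arrays the brightest probe set of another organism, and 77 exceeded the median gene. The brightest gave 11623 and 12802. What these probe sets match could not be read from the tables used here.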

How the results depend on the processing

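The count of genes below background depended on how background was set. It was 73 at the 95th percentile of probe sets of other organisms, 58 at the 90th, 131 at the 99th, and 134 with all non-control probe sets naming no S. cerevisiae gene. With the signal of LEU2 as background, an alternative chosen after seeing the data, it was 180 and the count above was 5190. Using only 1 array gave 99 genes below background with either array, 65 to 69 ribosomal protein genes in the first 100, 13 to 14 lists with a median percentile over 90, 83 to 90 and 91 to 92 genes shared with the 100 highest of the eos1 and izh2 deletions, 5350 genes above background, and a share of the 100 highest genes of 15.2% to 16.9%. Without either array the agreement between arrays has no value. Across the other alternatives (floor, average, quantile normalization, choice of probe set) these counts and the overlaps with the deletion strains moved by less than 1.5 times. Of 55 lists with a median compared, only the aryl-alcohol dehydrogenases moved by more than 5 points, to 8.08 from 26.7, with the lowest probe set per gene. No paired analysis was possible because the results come from no test. Signal over background limits what can be said of genes under the level of LEU2, 25.5 on array 1 and 18.7 on array 2.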
